A study of Mus musculus with 20 samples.

Results

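Long non-coding RNAs (lncRNAs) that were well expressed in cultured murine cancer-associated fibroblasts (CAFs) were followed across 4 culture conditions. A gene was a member when its type was lncRNA and its mean over the 20 libraries was at least 5 TPM (transcript abundance scaled to a fixed total per library). Genes named Snhg, Gas5 and 2410006H16Rik, hosts of small nucleolar RNAs (snoRNAs), were left out by the rule. This gave 143 members of the 32285 genes in the table, 9888 of which have the type lncRNA and 4078 of which were above 0 in any library. The rule used the mean level over all libraries, so the levels are a description. It also bears on the comparisons, since a member under 5 TPM in 1 group reached the mean only through groups where it was higher. In the vehicle groups, 14 members averaged under 5 TPM at 0.2 mM alone, 25 at 4 mM alone and 1 in both, and their differences between the glutamine levels are given as a description without support from a test. Of the groups at 0.2 mM, 5 members averaged under 5 TPM with EIPA alone, of which 4 were called lower. With vehicle alone 6 did, and all 6 were called higher. The EIPA changes of these members are likewise a description. Another 9 were under 5 TPM in both of these groups and reached the mean only through the 4 mM groups, and of these 4 were called lower and 0 higher.

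The cells were immortalised primary CAFs kept for 32 h in their condition, with 5 libraries in each of 4 groups. 2 groups had 0.2 mM glutamine, 1 with 25 uM EIPA and 1 with vehicle, and 2 had 4 mM glutamine, 1 with IL-1a at 25 pg/mL and 1 with vehicle. The vehicle, DMSO, was present in all 4 groups. EIPA is an amiloride analogue that blocks sodium-proton exchange and with it macropinocytosis, the engulfing of extracellular fluid. IL-1a is an inflammatory cytokine. The dose of EIPA follows the sample titles, and the treatment protocol gives the same figure in mM. The labels do not say whether the 5 libraries of a group came from separate cultures, so p-values measure the spread between these libraries.

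LncRNAs are transcripts without a long reading frame, mostly made, capped and spliced like messenger RNAs. Some build nuclear bodies, as Neat1 does for paraspeckles. Others are precursors of microRNAs or snoRNAs cut from their introns or exons, and others run opposite to or away from a coding gene and share its control region. In imprinted clusters such as Dlk1-Dio3 and Igf2-H19, the lncRNAs are transcribed from the maternal chromosome.

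Of the 143 members, 11 contained an annotated microRNA gene, and for 1 more, C430049B03Rik, a microRNA cluster began 719 bases downstream. Selected mature microRNAs of hosts described in the results are printed here 5′ to 3′ from RefSeq (GRCm38.p6), with the seed (bases 2 to 8) in capitals, since the seed decides which messenger RNAs a microRNA can pair with. The libraries did not measure mature microRNAs, only the host transcripts. Those of Meg3, Rian and Mirg, which hold 3, 6 and 26 annotated mature microRNAs, and the other arms are not printed. The first 3 lie in Mir100hg (chromosome 9) and Mir99ahg (chromosome 16), which host related clusters and each hold a copy of miR-125b-5p.
miR-100-5p (Mir100hg): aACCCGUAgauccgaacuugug
miR-99a-5p (Mir99ahg): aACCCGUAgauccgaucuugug
miR-125b-5p (Mir100hg and Mir99ahg): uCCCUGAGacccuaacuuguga
miR-351-5p (downstream of C430049B03Rik): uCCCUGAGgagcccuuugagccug
miR-322-5p (downstream of C430049B03Rik): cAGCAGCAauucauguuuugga
miR-16-5p (Dleu2): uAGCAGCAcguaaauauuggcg
miR-15a-5p (Dleu2): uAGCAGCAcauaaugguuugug
miR-31-5p (Gm49890): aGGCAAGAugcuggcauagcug
miR-675-5p (H19): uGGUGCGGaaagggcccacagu
miR-22-3p (Mir22hg): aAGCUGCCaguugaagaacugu
The seed ACCCGUA is shared by miR-100-5p and miR-99a-5p, CCCUGAG by miR-125b-5p and miR-351-5p, and AGCAGCA by miR-322-5p, miR-15a-5p and miR-16-5p. How each host moved is given with its values.

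In a principal component analysis of all genes, components 1, 2 and 3 held 70.0%, 12.6% and 4.07% of the variance. On component 3, IL-1a replicates 1 and 5 and the 4 mM vehicle replicate 5 stood apart. On component 4, with 2.29% of the variance, the 0.2 mM vehicle replicate 5 lay at 20.14, and the others of its group between -10.09 and -2.299. The libraries said below to stand apart are those of component 3. Of 10 fibroblast markers, 8 averaged at least 1 TPM over all 20 libraries, and Fap averaged 0.0505 TPM. Their summed level ran between 1959 and 2285 TPM with EIPA, 3248 and 3848 TPM with vehicle at 0.2 mM, 7423 and 9140 TPM with IL-1a and 8670 and 9438 TPM with 4 mM vehicle. This sum moved with EIPA and with glutamine, and its part in the results below was not tested. Fewer cells of a type and less RNA per cell cannot be told apart in such bulk libraries. The 5 leukocyte markers summed to between 0.01 and 1.53 TPM per library, with 3 of them listed at 0 in all 5 libraries of each group. Of the mesothelial markers, all 4 averaged at least 1 TPM over all 20 libraries. Their sums ran between 94.8 and 187 TPM with EIPA, 172 and 230.5 TPM with vehicle at 0.2 mM, 343 and 532 TPM with IL-1a and 386 and 591 TPM with 4 mM vehicle. Of the 5 epithelial markers, 2 averaged at least 1 TPM over all 20 libraries, led by Krt19, and Epcam averaged 0.103 TPM. The sums of the 5 ran between 88.5 and 120 TPM with EIPA, 133 and 206 TPM with vehicle at 0.2 mM, 167 and 362 TPM with IL-1a and 186 and 397 TPM with 4 mM vehicle. The 4 mural markers summed to between 6.14 and 9.38 TPM with EIPA, 13.3 and 16.6 TPM with vehicle at 0.2 mM, 17.9 and 20.5 TPM with IL-1a and 18.6 and 20.6 TPM with 4 mM vehicle. The 4 endothelial markers ran the other way with glutamine, between 6.69 and 9.26 TPM with EIPA, 6.33 and 10.3 TPM with vehicle at 0.2 mM, 1.9 and 3.54 TPM with IL-1a and 2.9 and 4.04 TPM with 4 mM vehicle, with Pecam1 at 0.0775 and Cdh5 at 0.008 TPM on average. The part of these markers in the results was not tested either.

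Levels were concentrated in few members. 10 members averaged at least 100 TPM, 76 at least 10 TPM and the median member 10.2 TPM over the 20 libraries. The members just inside the threshold were D030028A08Rik at 5.07, Gm50340 at 5.07 and Gm13375 at 5.02 TPM, and just outside were Gm37494 at 4.96, 9930014A18Rik at 4.96 and Gm48623 at 4.92 TPM. Of the members, 141 were above 0 in all 20 libraries and all 143 passed the filter of the test, at least 1 TPM in at least 5 libraries. Known lncRNAs under the threshold were Mir17hg at 3.88 TPM, Airn at 3.40 TPM, Dnm3os, the host of miR-199a and miR-214, at 1.82 TPM and Kcnq1ot1 at 0.0585 TPM. Of the members, 90 carry only a Gm or Rik name.

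The 10 members with the highest mean hold several that are no typical lncRNA. Gm42418, at 4412 TPM on average, Gm26917 (266 TPM) and AY036118 lie side by side or overlap on chromosome 17, where mm10 holds a copy of the ribosomal RNA precursor. Gm10076 (1276 TPM) is 99.5% identical over 383 bases to Rpl41, a ribosomal protein gene, so their reads can be shared and its level is uncertain. Ifi30 (153 TPM) is the gene of GILT, a lysosomal thiol reductase, and carries the type lncRNA in the table. Bc1 (131 TPM) is a short RNA polymerase III transcript that represses translation in neurons. The others were the snoRNA hosts 1110038B12Rik (498 TPM), AI506816 (286 TPM), Zfas1 (259.6 TPM) and Rian (125 TPM), and Malat1 (189 TPM), a nuclear speckle RNA.

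The share of all TPM held by the members, without the 3 members at the ribosomal RNA locus, was 0.566% ± 0.012 with EIPA, 0.501% ± 0.0044 with vehicle at 0.2 mM, 0.475% ± 0.017 with IL-1a and 0.454% ± 0.0091 with 4 mM vehicle (SD, n = 5 each). With EIPA it ran between 0.549% and 0.5795%, above the range of 0.494% to 0.505% in the 0.2 mM vehicle libraries. The vehicle libraries at 0.2 mM were in turn above those at 4 mM, which ran between 0.445% and 0.468%. With IL-1a the range was 0.455% to 0.5025% and overlapped that of its vehicle. The share is a description, since the members were chosen by level. Within groups the members varied by a median coefficient of variation of 13.8% with EIPA, 14.7% with vehicle at 0.2 mM, 16.5% with IL-1a and 13.7% with 4 mM vehicle.

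EIPA changed the level of 72 members relative to vehicle at 0.2 mM glutamine. 42 members rose and 30 fell, and 71 did not pass the test (limma on log2(TPM + 1), adjusted over the 12350 tested genes, called under 0.05). Over all tested genes, 27.4% were called higher and 21.1% lower, 48.5% in either direction, so the members' 29.4%, 21% and 50.3% are near the background. The median change of the members was 0.06 on the log2(TPM + 1) scale, and that of all tested genes 0.02. A rise of at least 2-fold on this scale was seen in 7 members (1.92% of all tested genes) and a fall of that size in 1 (1.23% of all tested genes). The 7 include Npn2 and U90926, and the 1 is Gm47766, each under 5 TPM on average in only 1 of the groups compared. These counts are therefore not read against those shares. For 47 members the 5 EIPA libraries did not overlap the 5 vehicle libraries, which held for 34.6% of all tested genes. Mitochondrially encoded transcripts held 5.69% ± 0.63 of TPM with EIPA and 8.87% ± 0.28 with vehicle at 0.2 mM (SD, n = 5 each), and with these genes left out 36 members were called higher and 32 lower, against 2781 higher and 3143 lower of all tested genes. With median-of-ratios scaling 38 members were called higher and 32 lower, and of all tested genes 2912 higher and 2970 lower. Under both settings more of all tested genes were called lower than higher. The members' higher and lower counts lie close together there, and are not read as a difference from all genes. The 123 members that averaged at least 5 TPM in both groups held 36 that rose and 22 that fell.

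**Figure D1:**
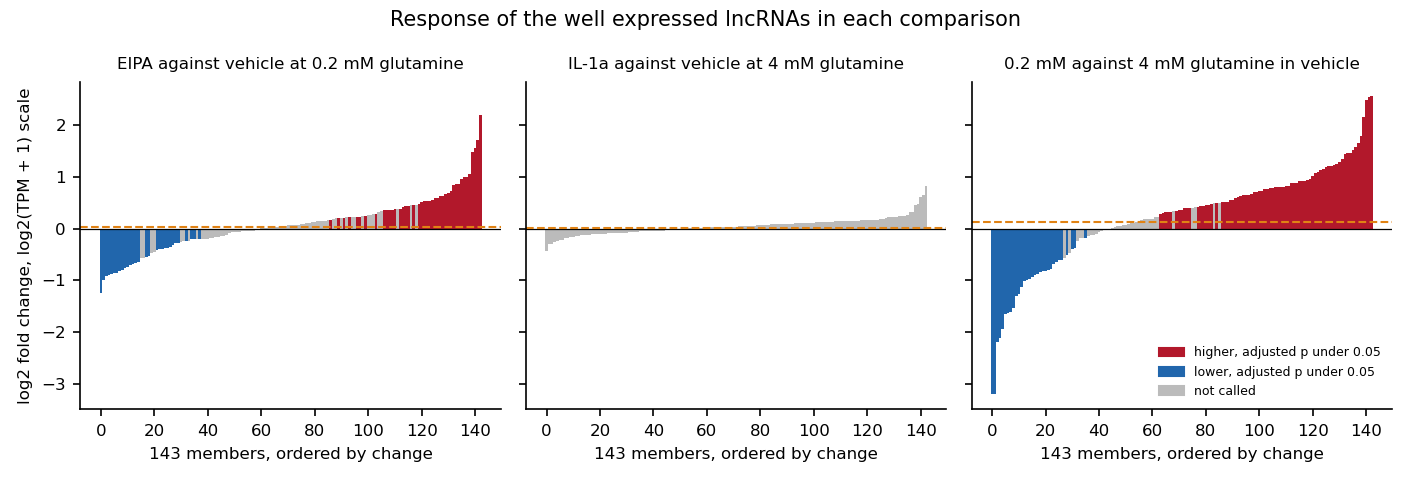
Log2 fold change of each of the 143 members on the log2(TPM + 1) scale, ordered by change, in the 3 comparisons, with called members in red (higher) and blue (lower) and the others in grey. The dashed line is the median of all tested genes (0.02, 0.01 and 0.14). 42 members are higher and 30 lower with EIPA, none is called with IL-1a, and 75 are higher and 31 lower at 0.2 mM than at 4 mM glutamine.

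Wincr1, a lncRNA described as a target of Wnt and beta-catenin signalling in dermal fibroblasts, rose most with EIPA. It lies at chr4:89050308-89084614 on the plus strand of mm10. It was at 34.5, 44.1, 38.6, 27.2 and 24.7 TPM with EIPA, against 9.55, 7.81, 6.51, 3.8 and 5.83 TPM with vehicle at 0.2 mM. All 5 EIPA libraries were above every other library of the table, and the log2 fold change was 2.19 ± 0.32 (SE; limma adjusted p = 1.0e-05). At 4 mM glutamine it averaged 4.48 ± 3.45 TPM with IL-1a and 3.54 ± 0.86 TPM with vehicle (SD, n = 5 each).

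Gm49890, the host of miR-31 on the opposite strand of the same region, rose as well. It lies at chr4:88909855-88938521 on the minus strand, 111786 bases from Wincr1. Gm49890 was at 30.2, 34.8, 35.5, 33.7 and 27.8 TPM with EIPA, against 12.8, 12.3, 10, 9.88 and 9.93 TPM with vehicle. The groups were apart, with a log2 fold change of 1.48 ± 0.10 (limma adjusted p = 4.3e-10). It averaged 10.7 ± 1.75 TPM with IL-1a and 9.94 ± 0.951 TPM with 4 mM vehicle, so that the EIPA group alone stood above the other 3.

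Mir100hg rose and Mir99ahg fell with EIPA, although they host miR-100-5p and miR-99a-5p of the same seed. Mir100hg was at 51, 67, 51.6, 80 and 57.6 TPM with EIPA, against 20, 25.2, 16.6, 17.6 and 21 TPM with vehicle. Its log2 fold change was 1.56 ± 0.19 (limma adjusted p = 1.2e-06), and the groups did not overlap. Mir99ahg was at 4.45, 5.14, 4.51, 5.69 and 8.58 TPM with EIPA, against 11, 8.62, 10.7, 11.5 and 14.5 TPM with vehicle, and the highest EIPA library lay just under the lowest vehicle library. Its log2 fold change was -0.89 ± 0.14 (limma adjusted p = 3.8e-05). Between the glutamine levels, Mir100hg averaged 20.1 ± 3.36 TPM at 0.2 mM and 41.3 ± 9.37 TPM at 4 mM in vehicle, a log2 difference relative to the median gene of -1.13 ± 0.19 (limma adjusted p = 8.9e-05). Mir99ahg averaged 11.2 ± 2.11 TPM and 10.9 ± 1.98 TPM in these groups and did not pass the test (limma adjusted p = 0.8).

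The remaining members that rose most with EIPA were Mirt1, Npn2 and U90926. Mirt1, named as a transcript induced after myocardial infarction in mouse, was at 24.1, 30.5, 25.5, 24.2 and 21.7 TPM with EIPA, against 11.6, 12.3, 10.2, 13.2 and 12.7 TPM with vehicle. Its log2 fold change was 1.01 ± 0.09 (limma adjusted p = 2.8e-08), and it was also higher in vehicle at 0.2 mM than at 4 mM glutamine, by 0.62 ± 0.09 relative to the median gene. Npn2, a single-exon transcript opposite an intron of Cald1, was at 11.8, 14.8, 7.41, 16.9 and 11.3 TPM with EIPA, against 4.92, 4.32, 4.85, 4.26 and 0 TPM with vehicle, where replicate 5 was listed at 0. Its log2 fold change was 1.72 ± 0.46, given without support from a test, since it averaged under 5 TPM with vehicle alone of the groups compared. Cald1, which encodes the actin-binding protein caldesmon, fell to 487 ± 23 TPM with EIPA, against 717 ± 89.3 TPM with vehicle (limma adjusted p = 1.9e-06). U90926, typed protein coding in GENCODE M21, averaged 5.96 ± 1.41 TPM with EIPA and 2.37 ± 0.74 TPM with vehicle, a log2 fold change of 1.05 ± 0.33. Of the groups compared, it too averaged under 5 TPM with vehicle alone, so its rise is likewise given without support from a test.

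The members that fell most with EIPA include Gm47766, Hotairm1 and Sp3os. Gm47766, which shares 363 exon bases with Actn1 on the opposite strand, was at 4.38, 3.43, 3.9, 4.23 and 1.69 TPM with EIPA, against 9.07, 8.86, 10.6, 12.5 and 6.92 TPM with vehicle. Its log2 fold change was -1.25 ± 0.21, given without support from a test, since it averaged under 5 TPM with EIPA alone of the groups compared. Actn1, the gene of the actin crosslinker alpha-actinin-1, fell to 242 ± 17.3 TPM with EIPA, against 400.1 ± 67 TPM with vehicle. The strand setting of the counting is not given in the sources used here, so reads of the shared bases may not be told apart.

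Hotairm1, a lncRNA described in human myeloid cells, was at 14.6, 10.5, 11.7, 14.7 and 10.7 TPM with EIPA, against 30.2, 23, 25.6, 17.6 and 21.4 TPM with vehicle. Its log2 fold change was -0.87 ± 0.13 (limma adjusted p = 1.5e-05), and the EIPA libraries were all below the vehicle libraries. Sp3os, opposite the transcription factor gene Sp3 with 109 shared exon bases, was at 5.78, 4.41, 4.82, 8.73 and 6.88 TPM with EIPA, against 12.2, 11.6, 9.57, 11.9 and 14.6 TPM with vehicle (log2 fold change -0.89 ± 0.17, limma adjusted p = 2.3e-04). Sp3 fell to 74.9 ± 1.9 TPM with EIPA, against 92 ± 6.65 TPM with vehicle, a smaller log2 change of -0.29 ± 0.06. 5033430I15Rik, which starts 245 bases from Atxn1 and runs away from it, averaged 1.78 ± 0.377 TPM with EIPA and 4.08 ± 0.843 TPM with vehicle (log2 fold change -0.86 ± 0.12, limma adjusted p = 4.8e-06). It was thus under 5 TPM in both groups, and reached the mean only through the 4 mM groups.

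**Figure D2:**
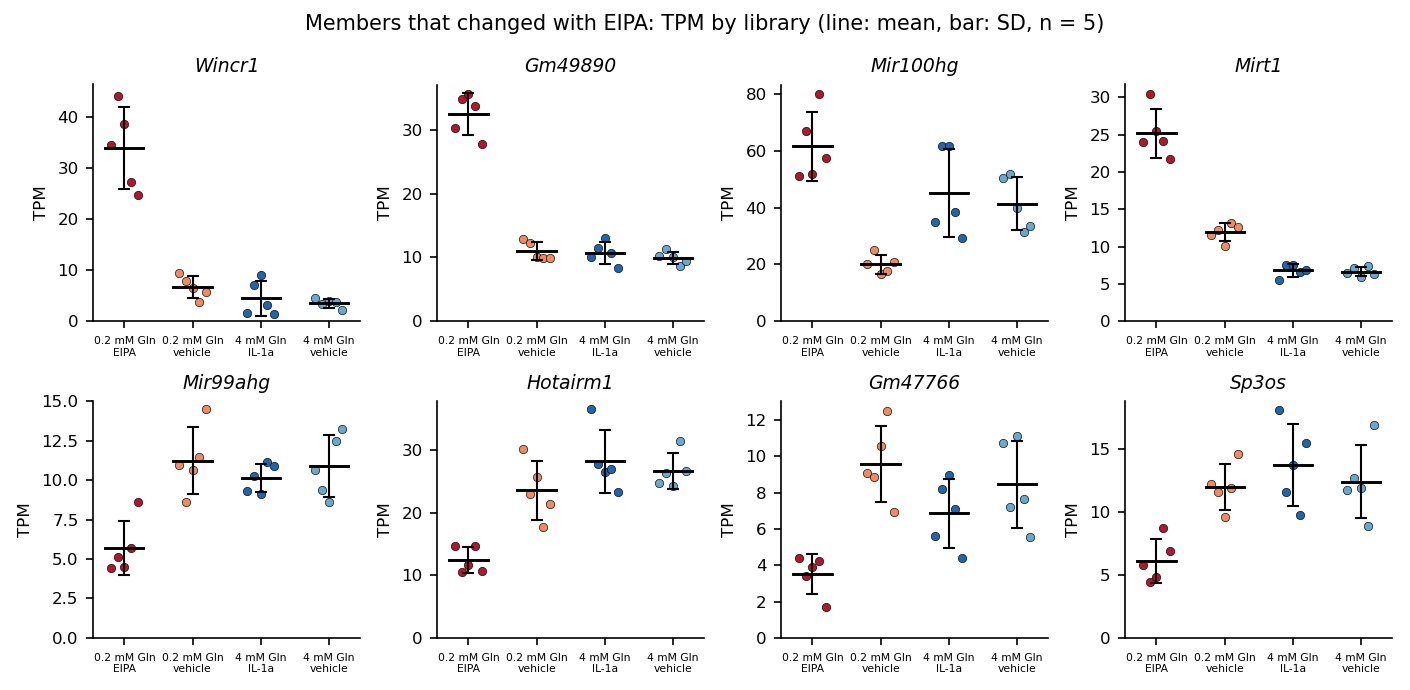
TPM of 8 members in each of the 20 libraries by group, with points for libraries, a line for the mean and a bar for the SD (n = 5). The EIPA libraries lie above their 0.2 mM vehicle libraries for Wincr1, Gm49890, Mir100hg and Mirt1, and below them for Mir99ahg, Hotairm1, Gm47766 and Sp3os.

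Vehicle libraries at 0.2 mM glutamine differed from those at 4 mM in 106 members, 75 higher and 31 lower, while 37 did not pass the test. Over all tested genes, 45.4% were called higher and 27.9% lower, 73.3% in either direction, and the members' shares were 52.4%, 21.7% and 74.1%. The median tested gene was 0.14 higher (log2) at 0.2 mM, the median member 0.36 higher, and the changes that follow are given relative to the median gene while the calls are those of the unshifted values. With median-of-ratios scaling, which sets the median gene near 0, 67 members were called higher and 35 lower, and of all tested genes 4385 were called higher and 4438 lower. For 88 members the 5 libraries of each level did not overlap, which held for 59.9% of all tested genes. Among the 103 members that averaged at least 5 TPM in both groups, 54 were called higher (52.4%) and 20 lower (19.4%). A difference of at least 2-fold, unshifted, was seen for 23 members that were higher and 13 that were lower. Of all tested genes, 4.84% were higher and 6.26% lower by that much. The higher members include D330041H03Rik, under 5 TPM on average at 4 mM alone, and the lower ones H19, under 5 TPM at 0.2 mM alone. These counts are therefore not read against those shares.

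Most imprinted members were lower at 0.2 mM glutamine. Of the 5, Meg3, Rian, Mirg and H19 were lower (80%) and Peg13 was higher (20%), against 27.9% and 45.4% of all tested genes. With EIPA 3 of the 5 fell (60%), against 21.1% of all tested genes. These are few genes, and Mirg and H19 reached the mean of 5 TPM only through the 4 mM groups. Meg3, Rian and Mirg are maternally expressed RNAs of the Dlk1-Dio3 cluster on chromosome 12, where they lie on the plus strand between 109541001 and 109749460 (mm10). Meg3 is reported as a growth suppressor, Rian carries snoRNA genes and Mirg microRNA genes.

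Meg3 was at 37, 45.3, 35.8, 46.5 and 33.9 TPM in vehicle at 0.2 mM, against 126, 127, 135, 115 and 127 TPM at 4 mM. No library of the lower level came near the higher, and the log2 difference was -1.79 ± 0.10 relative to the median gene (limma adjusted p = 8.1e-12). With EIPA, Meg3 was at 16.7, 22.5, 16.6, 24.5 and 22.9 TPM, below all 5 of its vehicle libraries, a log2 fold change of -0.92 ± 0.10 (limma adjusted p = 2.8e-07). With IL-1a it averaged 119 ± 6.34 TPM, against 126 ± 7.22 TPM with vehicle (limma adjusted p = 1).

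Rian followed the same order of groups. It was at 33.9, 34, 31.3, 38.5 and 34 TPM with EIPA, against 58.8, 62.3, 51.9, 54.6 and 46.8 TPM with vehicle at 0.2 mM (log2 fold change -0.66 ± 0.08, limma adjusted p = 5.1e-07). At 4 mM it was at 228, 196, 171, 191 and 195 TPM with IL-1a, against 206, 228, 208, 203 and 220.2 TPM with vehicle, and between the vehicle groups the log2 difference was -2.08 ± 0.08 relative to the median gene (limma adjusted p = 1.2e-14). Mirg averaged 2.38 ± 0.518 TPM in vehicle at 0.2 mM and 9.51 ± 1.28 TPM at 4 mM (-1.78 ± 0.14 relative to the median gene), and it too reached 5 TPM only through the 4 mM groups. With EIPA, Mirg averaged 1.96 ± 0.578 TPM and did not pass the test (limma adjusted p = 0.24). Dlk1, the paternally expressed coding gene at the other end of the cluster, averaged 12.7 ± 1.32 TPM with EIPA and 26.9 ± 3.22 TPM with vehicle at 0.2 mM, and 44.6 ± 2.82 TPM with vehicle at 4 mM. It was lower in both comparisons (limma adjusted p = 2.8e-08 for EIPA and 9.1e-07 for glutamine).

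H19, the maternally expressed host of miR-675 beside Igf2 on chromosome 7 (142575529 to 142578143), had the most negative log2 difference of the members at 0.2 mM, just past that of C430049B03Rik. It reached a mean of 5 TPM only through the 4 mM groups, so being lower at 0.2 mM follows from its membership. It was at 0.65, 0.25, 0.36, 0.8 and 0.35 TPM in vehicle at 0.2 mM, against 7.06, 7.87, 18.7, 10.5 and 27.2 TPM at 4 mM. Every 0.2 mM library was under 1 TPM and every 4 mM library over 6 TPM, a log2 difference of -3.34 ± 0.30 relative to the median gene. With IL-1a it was at 16.9, 6.3, 9.67, 8.43 and 22.1 TPM, and the libraries that stand apart were among the highest. Without these 3 libraries, the unshifted log2 difference between the glutamine levels was -2.94 for H19 and -2.96 for C430049B03Rik, against -3.21 for H19 with them, and the order of the pair turned round. Igf2, the growth factor gene of the same domain, averaged 29.8 ± 6.17 TPM in vehicle at 0.2 mM and 120.3 ± 40 TPM at 4 mM (limma adjusted p = 1.2e-07). Of 24 imprinted coding genes listed, 16 were tested, of which 4 (25%) were higher and 7 (43.8%) lower at 0.2 mM, against 45.4% and 27.9% of all tested genes. With EIPA 5 (31.2%) rose, or 3 with mitochondrially encoded genes left out, and 8 (50%) fell, against 27.4% and 21.1% of all tested genes. Peg10, from an imprinted retrotransposon-derived gene, averaged 3.24 ± 0.253 TPM in vehicle at 0.2 mM and 16.6 ± 1.97 TPM at 4 mM, and Igf2r averaged 81.5 ± 4.2 TPM and 48 ± 1.81 TPM in the same groups.

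C430049B03Rik, upstream of miR-322, miR-503 and miR-351 on chromosome X (53055046 to 53057190), likewise reached the mean only through the 4 mM groups. It was at 2.05, 1.5, 1.24, 2.96 and 2.15 TPM in vehicle at 0.2 mM, against 18.8, 18.2, 22.8, 28.6 and 50.3 TPM at 4 mM. The groups lay far apart, with a log2 difference of -3.33 ± 0.30 relative to the median gene. With EIPA it averaged 1 ± 0.398 TPM, against 1.98 ± 0.666 TPM with vehicle, and did not pass the test (limma adjusted p = 0.13), although it did with a pseudocount of 0.1 (limma adjusted p = 0.031). Dleu2, whose miR-15a-5p and miR-16-5p share the seed of miR-322-5p, averaged 11.2 ± 0.747 TPM in vehicle at 0.2 mM and 8.86 ± 0.756 TPM at 4 mM and was higher (limma adjusted p = 0.0021). Among the 11 members that contain a microRNA gene, 2 were higher and 6 lower at 0.2 mM, and 2 rose and 4 fell with EIPA. These are 18.2% and 54.5%, against 45.4% and 27.9% of all tested genes for glutamine, and 18.2% and 36.4%, against 27.4% and 21.1% for EIPA, and H19 and Mirg are among the lower ones.

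Gm49708 (chromosome 16) and Gm50321 (chromosome 19) are 98.9% identical over 1014 bases and were both lower at 0.2 mM. Reads can be shared between them and with further copies, so they are not independent and their levels are uncertain. Gm49708 averaged 5.4 ± 0.855 TPM in vehicle at 0.2 mM and 29.3 ± 11.4 TPM at 4 mM (-2.32 ± 0.25 relative to the median gene), and Gm50321 3.85 ± 0.845 TPM and 20.8 ± 8.71 TPM (-2.24 ± 0.26). In the 4 mM vehicle group, replicate 5 was the highest library for both, as for H19 and C430049B03Rik. Without the 3 libraries that stand apart, the unshifted differences were -1.99 for Gm49708 and -1.90 for Gm50321.

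Among the members higher at 0.2 mM, 5430416N02Rik at chr5:100420842-100429535 on the minus strand, 4608 bases from Sec31a, led. It was at 147, 153, 196, 157 and 238 TPM in vehicle at 0.2 mM, against 32.1, 31, 24.3, 29.3 and 28.5 TPM at 4 mM. The log2 difference was 2.42 ± 0.10 relative to the median gene (limma adjusted p = 1.9e-14). With EIPA it fell to 105 ± 6.66 TPM on average, against 178 ± 38.6 TPM with vehicle (log2 fold change -0.74 ± 0.10, limma adjusted p = 5.6e-06). Sec31a, a COPII coat gene of vesicle export from the endoplasmic reticulum, was lower at 0.2 mM, with 169.9 ± 5.59 TPM against 298 ± 20.7 TPM at 4 mM in vehicle.

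Zfas1, a host of snoRNAs of the Snord12 group beside Znfx1 on chromosome 2, was at 419, 400, 398, 389 and 459 TPM in vehicle at 0.2 mM, against 104, 91.9, 92.1, 87.6 and 84.1 TPM at 4 mM. The groups were far apart, by 2.02 ± 0.08 relative to the median gene (limma adjusted p = 1.1e-14), and with EIPA it averaged 439 ± 41.7 TPM (limma adjusted p = 0.41). Znfx1, an antiviral helicase gene that shares 82 exon bases with it on the opposite strand, averaged 13.4 ± 1.11 TPM and 13.7 ± 1.08 TPM in these groups (limma adjusted p = 0.84). 1110038B12Rik, host of Snord52, averaged 654 ± 26.2 TPM in vehicle at 0.2 mM and 268 ± 29.7 TPM at 4 mM (1.16 ± 0.08 relative to the median gene). Of the 10 members that contain a snoRNA gene, 6 were higher and 3 lower at 0.2 mM, and 4 rose and 3 fell with EIPA. These are few genes, and the shares of all tested genes were 45.4% and 27.9% for glutamine and 27.4% and 21.1% for EIPA. The lower ones include Rian, whose snoRNAs belong to the imprinted cluster. Of 24 listed genes of the RNA exosome and of nonsense-mediated decay, both RNA decay pathways, 19 (79.2%) were higher and 0 lower at 0.2 mM by limma, against 45.4% and 27.9% of all tested genes. Their median was 0.34 on the log2 scale, or 0.20 relative to the median gene, and with median-of-ratios scaling 13 were higher and 1 lower. Upf2, a decay factor, averaged 48.6 ± 1.24 TPM at 0.2 mM and 26.6 ± 1.02 TPM at 4 mM in vehicle, and Exosc3, an exosome cap subunit, averaged 85.9 ± 7.5 TPM and 46.8 ± 2.36 TPM.

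3 of the other members that were highest at 0.2 mM lie opposite coding genes. D330041H03Rik, with 914 exon bases shared with the lipid transporter gene Abca3, averaged 25.9 ± 3.16 TPM in vehicle at 0.2 mM and 3.65 ± 1.01 TPM at 4 mM (2.41 ± 0.14 relative to the median gene). Abca3 averaged 13.9 ± 0.739 TPM and 15.6 ± 1.27 TPM in these groups and did not pass the test. Gm13205, with 122 exon bases shared with the zinc finger gene Casz1, averaged 39.3 ± 6 TPM at 0.2 mM and 6.19 ± 1.28 TPM at 4 mM (2.36 ± 0.14 relative to the median gene, limma adjusted p = 1.7e-12), while Casz1 averaged 1.43 ± 0.349 TPM and 1.86 ± 0.18 TPM and did not pass the test. 1110002L01Rik, with 2617 exon bases shared with the kinesin gene Kif3c, averaged 42.6 ± 5.52 TPM and 11.6 ± 0.977 TPM (1.65 ± 0.10 relative to the median gene), and rose further with EIPA to 65 ± 9.89 TPM (log2 fold change 0.60 ± 0.10). Kif3c also rose with EIPA, to 15.2 ± 1.2 TPM, against 7.72 ± 1.03 TPM with vehicle, but was lower at 0.2 mM than at 4 mM, with 9.62 ± 0.426 TPM at 4 mM. Gm13421, near Wdr5, averaged 11 ± 1.99 TPM at 0.2 mM and 2.88 ± 1.13 TPM at 4 mM in vehicle (1.52 ± 0.17 relative to the median gene).

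**Figure D3:**
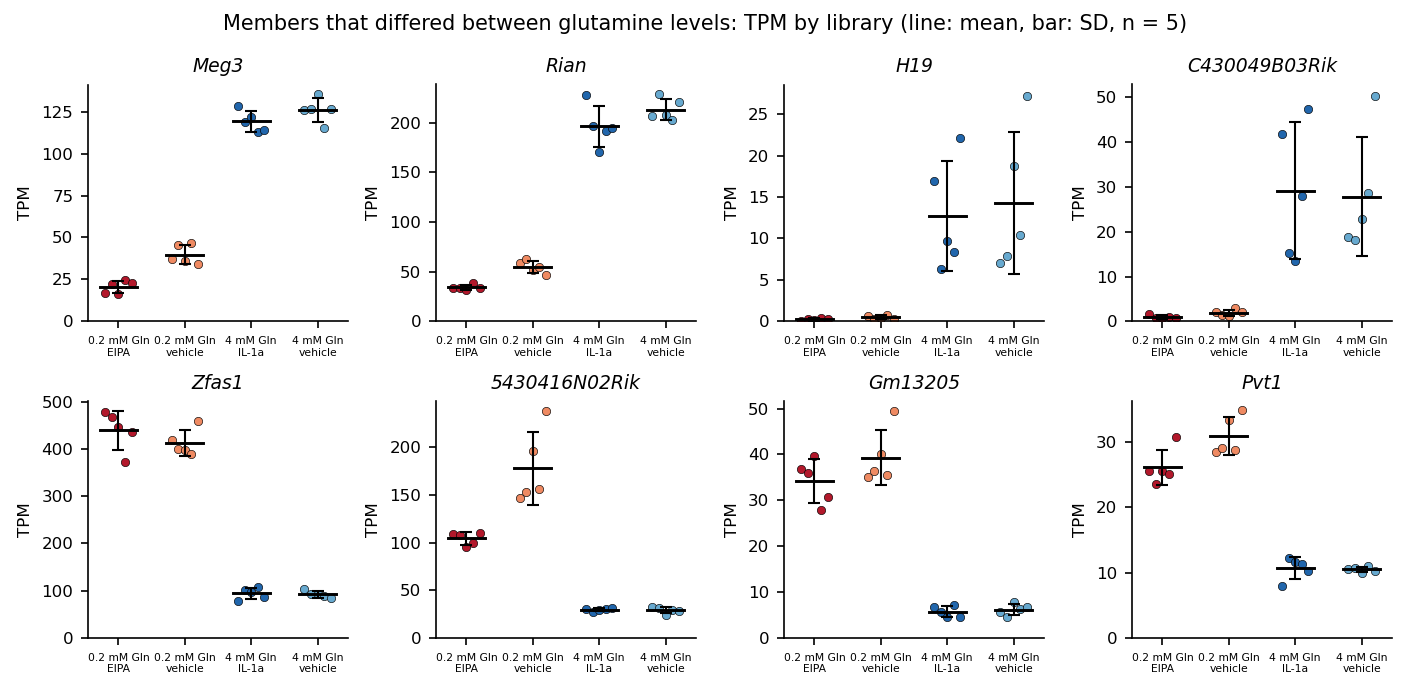
TPM of 8 members in each of the 20 libraries by group, with points for libraries, a line for the mean and a bar for the SD (n = 5). Meg3, Rian, H19 and C430049B03Rik are lower in the 0.2 mM than in the 4 mM vehicle libraries, and Zfas1, 5430416N02Rik, Gm13205 and Pvt1 are higher, with no overlap in any of the 8.

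The nuclear body RNAs differed from each other. Malat1, which gathers splicing factors in nuclear speckles, was at 258, 336, 298, 259.8 and 312 TPM with EIPA, against 199.7, 213, 174, 204 and 204 TPM with vehicle at 0.2 mM (log2 fold change 0.55 ± 0.13, limma adjusted p = 0.0011). In vehicle it was higher at 0.2 mM than at 4 mM, where it averaged 127 ± 25.2 TPM, by 0.53 ± 0.13 relative to the median gene (limma adjusted p = 7.0e-05). Neat1, the scaffold of paraspeckles, was at 41.1, 48, 40.3, 91.2 and 95.9 TPM with EIPA, against 68.8, 74.2, 65.2, 71.6 and 52.3 TPM with vehicle (limma adjusted p = 0.53). EIPA replicates 4 and 5 lay above every vehicle library and replicates 1 to 3 below every one. Between the glutamine levels Neat1 averaged 66.4 ± 8.6 TPM at 0.2 mM and 94.6 ± 14.1 TPM at 4 mM in vehicle (limma adjusted p = 0.03). That call is lost without the 0.2 mM vehicle replicate 5 (adjusted p = 0.0827) or the 4 mM vehicle replicate 5 (adjusted p = 0.0804), and without the filter on low values (adjusted p = 0.0628).

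Of 18 paraspeckle proteins, partners of Neat1, 2 (11.1%) rose and 12 (66.7%) fell with EIPA, against 27.4% and 21.1% of all tested genes. At 0.2 mM glutamine 7 (38.9%) were higher and 7 lower, against 45.4% and 27.9% of all tested genes. Hnrnph3, an RNA-binding protein gene, averaged 29.7 ± 1.11 TPM with EIPA and 64.2 ± 10.9 TPM with vehicle, and Pspc1, a core paraspeckle gene, 11.5 ± 0.931 TPM and 19.3 ± 3.5 TPM. Of 24 nuclear speckle and SR protein genes, which control splicing, 6 (25%) rose and 12 (50%) fell with EIPA. At 0.2 mM 13 (54.2%) were higher and 6 (25%) lower, or 9 and 11 with median-of-ratios scaling, near the shares of all tested genes. Tra2b, a splicing regulator, averaged 146 ± 6.38 TPM with EIPA and 216 ± 21.4 TPM with vehicle, and Srsf5 averaged 346 ± 22.4 TPM and 260.2 ± 39.5 TPM.

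Of the 3 members known as cytoplasmic RNAs that bind proteins or microRNAs, 2 rose and 0 fell with EIPA by limma, and 2 were higher and 1 lower at 0.2 mM. These are few genes, and the shares of all tested genes were 27.4% and 21.1% for EIPA and 45.4% and 27.9% for glutamine. 2900097C17Rik, the mouse Norad, which sequesters Pumilio proteins, averaged 86.9 ± 4.26 TPM with EIPA and 73.9 ± 1.33 TPM with vehicle (log2 fold change 0.23 ± 0.05, limma adjusted p = 5.1e-04). Oip5os1, or Cyrano, which directs decay of miR-7, averaged 51.4 ± 1.17 TPM in vehicle at 0.2 mM and 32.6 ± 3.62 TPM at 4 mM (0.51 ± 0.08 relative to the median gene, limma adjusted p = 3.9e-07). Tug1, needed for male fertility in mice, averaged 78.7 ± 4.88 TPM at 0.2 mM and 58.9 ± 5.28 TPM at 4 mM in vehicle (0.28 ± 0.07 relative to the median gene, limma adjusted p = 2.2e-05). Of 13 tested genes of the Pumilio and microRNA machinery, 9 (69.2%) were higher and 2 (15.4%) lower at 0.2 mM, against 45.4% and 27.9% of all tested genes. With median-of-ratios scaling these were 7 and 4. With EIPA 2 (15.4%) rose and 2 fell, against 27.4% and 21.1% of all tested genes (1 rose with median-of-ratios scaling).

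Pvt1, the neighbour of Myc, was higher at 0.2 mM glutamine. It was at 28.5, 29.1, 33.2, 28.8 and 34.9 TPM in vehicle at 0.2 mM, against 10.6, 10.8, 9.94, 11 and 10.2 TPM at 4 mM, and the log2 difference was 1.33 ± 0.09 relative to the median gene (limma adjusted p = 1.3e-11). Epb41l4aos averaged 66.7 ± 10.1 TPM at 0.2 mM and 30.9 ± 4.43 TPM at 4 mM in vehicle (0.95 ± 0.12 relative to the median gene, limma adjusted p = 1.0e-07). Mir22hg, the host of miR-22, averaged 13.5 ± 1.06 TPM and 21.4 ± 2.73 TPM in these groups and was lower (-0.75 ± 0.11 relative to the median gene, limma adjusted p = 2.9e-05).

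IL-1a was compared with vehicle at 4 mM glutamine, and no member passed the test. By limma 0 were called higher and 0 lower, 10 had an unadjusted p under 0.05, and every alternative fit also called 0. Over all tested genes, 0.259% were called higher and 0.0243% lower, 0.283% in either direction. For 0 members the groups lay apart or the called change reached 2-fold, which held for 1.38% of all tested genes for the first, and for 0.113% (higher) and 0.0081% (lower) for the second. Gm12840 and Gm20186, named after their values were seen, are 97.5% identical over 628 bases and can share reads. Gm12840 was at 84.4, 33.1, 26.4, 34.2 and 54.4 TPM with IL-1a, against 17.7, 24, 23.2, 16.6 and 42.4 TPM with vehicle (limma adjusted p = 0.42). Gm20186 was at 94.2, 42.5, 32.2, 41.9 and 61.7 TPM with IL-1a, against 23.1, 29.7, 32.1, 30.2 and 51.6 TPM with vehicle (limma adjusted p = 0.52). The groups overlapped for both. IL-1a replicates 1 and 5 and vehicle replicate 5, which stand apart, were the highest libraries of their groups. The test of the difference between the responses to EIPA and to IL-1a called 34 members, 16 with a higher and 18 with a lower EIPA response, or 23.8% against 28.9% of all tested genes. The arms differ in glutamine, so agent and glutamine cannot be told apart in that test.

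The members at the ribosomal RNA locus and Rmrp, the RNA of the RNase MRP enzyme, varied widely between libraries. Gm42418 was at 4309, 13662, 3976, 2507 and 3001 TPM with IL-1a, against 3433, 3256, 4631, 3053 and 5459 TPM with vehicle at 4 mM. Rmrp was at 17.8, 398, 37.1, 14.4 and 24.7 TPM with IL-1a, against 8.51, 13.8, 57.3, 18.5 and 82.9 TPM with vehicle. IL-1a replicate 2 held the highest value of all 20 libraries for both, and for Gm26917 (456 TPM) and AY036118 (36.7 TPM). In that library the 143 members took 1.92% of TPM, against 0.735% to 1.14% in the other 19. Ribosomal RNA and Rmrp lack the poly(A) tails by which these libraries were selected, and their part in the levels of other genes was not tested. None of these 4 members passed the test for EIPA or IL-1a. Gm26917 was higher at 0.2 mM, with 337 ± 45 TPM against 203 ± 30.1 TPM at 4 mM in vehicle (limma adjusted p = 0.004).

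**Figure D4:**
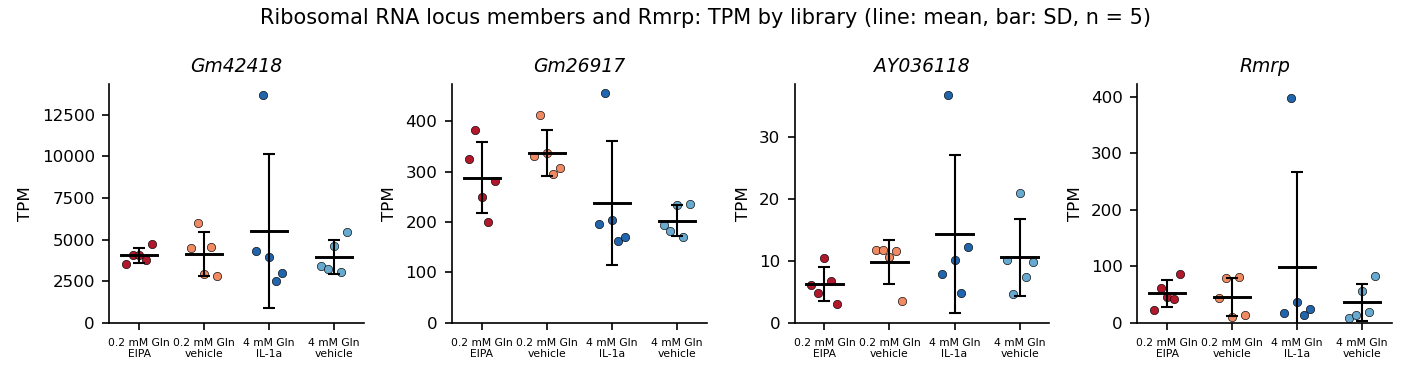
TPM of Gm42418, Gm26917, AY036118 and Rmrp in each of the 20 libraries by group, with points for libraries, a line for the mean and a bar for the SD (n = 5). IL-1a replicate 2 is the highest point in each panel.

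A protein-coding gene within 5 kb, or overlapping, was tested for 93 members. For EIPA, both genes were called in 27 pairs (29.0%), of which 12 rose together, 10 fell together and 5 moved in opposite directions. Between the glutamine levels both were called in 53 pairs (57.0%), with 31 higher together, 8 lower together and 14 opposite. Counted singly, 48.5% of all tested genes were called for EIPA and 73.3% for glutamine. Shares of pairs cannot be set against these shares of single genes. With so many genes called, the counts of pairs are not read as joint changes. Hand2os1 and Hand2, a transcription factor gene on the opposite strand, were both lower at 0.2 mM. They share 461 exon bases, and with the strand setting not given, reads of these bases may not be told apart. Hand2os1 averaged 7.2 ± 1.35 TPM at 0.2 mM and 17 ± 2.14 TPM at 4 mM in vehicle, and Hand2 14.4 ± 0.649 TPM and 40 ± 1.73 TPM. Fendrr and Foxf1, a mesenchymal transcription factor gene whose start lies 1276 bases away, both rose with EIPA. Fendrr averaged 8.08 ± 0.262 TPM with EIPA and 5.32 ± 0.467 TPM with vehicle, and Foxf1 50.5 ± 4.75 TPM and 39.4 ± 2.15 TPM.

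Gm17501, whose start lies 331 bases from that of Ccn1, fell with EIPA together with this matricellular protein gene. Gm17501 averaged 7.88 ± 1.63 TPM with EIPA and 13.4 ± 1.52 TPM with vehicle (limma adjusted p = 3.2e-04), and Ccn1 297 ± 19.8 TPM and 477 ± 68.7 TPM (limma adjusted p = 0.023). Gm41724 lies opposite Lox, the gene of the collagen crosslinking enzyme lysyl oxidase, and shares 30 exon bases with it. Gm41724 averaged 7.7 ± 2.04 TPM with EIPA and 14.1 ± 1.71 TPM with vehicle, and Lox 118 ± 17.9 TPM and 291 ± 31.3 TPM. Both fell (limma adjusted p = 0.001 for Gm41724 and 3.6e-10 for Lox). At 0.2 mM against 4 mM glutamine they moved in opposite directions, with Gm41724 at 14.1 ± 1.71 TPM and 7.28 ± 1.68 TPM and Lox at 291 ± 31.3 TPM and 391 ± 28.9 TPM. Of the members, 59 shared exon bases with another gene, 51 of them on the opposite strand. Among the 84 that shared none, 28 rose and 16 fell with EIPA, and 43 were higher and 23 lower at 0.2 mM. The shares, 33.3% and 19% for EIPA and 51.2% and 27.4% for glutamine, are near those of all tested genes.

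The Meg3 promoter is shown because Meg3, Rian and Mirg were all lower at 0.2 mM. It covers 250 bases before to 50 bases after the annotated start, chr12:109540746-109541045 on the plus strand (RefSeq, GRCm38.p6), with matches to TATAAA and TGACGTCA on either strand in capitals. Another Meg3 promoter window, chr12:109545148-109545447, is not shown and held no match to any motif searched.
Meg3 promoter: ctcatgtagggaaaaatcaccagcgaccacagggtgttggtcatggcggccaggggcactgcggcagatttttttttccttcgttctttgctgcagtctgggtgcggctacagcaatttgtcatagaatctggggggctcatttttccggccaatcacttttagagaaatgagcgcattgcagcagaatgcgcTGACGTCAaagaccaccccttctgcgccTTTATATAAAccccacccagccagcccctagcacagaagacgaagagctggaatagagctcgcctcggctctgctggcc
The core promoter motif TATAAA matched at positions 222 and 226 of the window, on opposite strands and overlapping, and was found in 13.6% of 32851 promoters and 11.1% of the 108 promoters of the 90 members that have one. TGACGTCA, the cyclic AMP response element, matched at position 194 and was found in 1.79% of all and 3.7% of member promoters. Of other motifs searched on both strands, GGAATG, bound by TEAD factors, was in 14.7% of all and 23.1% of member promoters. CACGTG, the E-box, was in 7.15% of all and 12.0% of member promoters, TGANTCA, the AP-1 site, in 7.81% and 6.48%, and TGATGCAA, bound by CHOP and ATF4, in 0.895% of all and in none of the members' promoters. These matches describe letters in the window and were not tested against the changes.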

How the data were processed

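RNA of 20 libraries, 5 per group, was sequenced as read pairs of 75 bases after poly(A) selection, per the labels' protocols. The authors deposited TPM values per gene, made with RSEM on mm10 per the submitters' processing notes. Aligner, annotation release and strand setting: not given in the sources used here. Libraries summed to between 999999.47 and 1000000.84 TPM, so the depth is unknown and no counting interval is given.

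The test was limma (version 3.58.1, R version 4.3.3) on log2(TPM + 1), in 1 model of the 4 groups with a variance trend, and the script was checked on simulated data. It covered the 12350 genes that reached 1 TPM in 5 or more libraries. The Benjamini-Hochberg method adjusted p over these genes, and an adjusted p under 0.05 was called. A log2 fold change carries its SE and a TPM mean its SD (n = 5), and the added 1 TPM understates the change of low genes. Positions, exons and hosted small RNAs came from GENCODE M21 (GRCm38), which held all 143 members, and near-identical stretches of at least 97% from blastn 2.17.0. Members named with values were a panel of known lncRNAs, the 6 called members with the largest non-overlapping change in each direction and the 10 highest, besides members of described classes and neighbour pairs. The members, lists and rules were chosen with earlier results of these data known. Alternatives were another pseudocount, filters, scalings, a replicate block, 2-group fits, a threshold of 10 TPM and left-out libraries.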

Additional observations from a re-analysis of the deposited data

Results flagged for a closer look

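In 156 groups of 5 libraries, those of the 39 named members, 9 had a library far from the others (Dixon's test), where chance flags about 5% of groups. IL-1a replicate 2 was high for Rmrp at 398.4 TPM, with the next at 37.1 TPM, and for Gm26917 at 456 TPM, with the next at 203 TPM. The 0.2 mM vehicle replicate 5 was low for D330041H03Rik at 20.5 TPM and listed at 0 for Npn2, while replicate 3 of that group was low for 5033430I15Rik at 2.61 TPM. EIPA replicate 5 was low for 2900097C17Rik at 79.4 TPM and for Gm47766 at 1.69 TPM, and EIPA replicate 3 for Gm50321 at 2.81 TPM. The 4 mM vehicle replicate 5 was low for U90926 at 4.15 TPM.

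For 17 named members the response to EIPA differed from that to IL-1a by limma's test of the difference. It was more positive with EIPA, on the log2 scale, by 2.15 for Wincr1, 1.84 for Npn2, 1.47 for Mir100hg, 1.39 for Gm49890, 0.98 for Mirt1, 0.56 for 1110002L01Rik and 0.38 for Gm10076. The difference was -1.02 for Sp3os, -0.98 for Gm47766, -0.93 for Hotairm1, -0.84 for Meg3, -0.81 for Mir99ahg, -0.77 for 5430416N02Rik, -0.68 for 5033430I15Rik, -0.67 for Gm13421, -0.53 for Rian and -0.33 for AI506816. The arms differ in glutamine as well as in agent. For Wincr1, Npn2, Gm47766, 5033430I15Rik and Gm13421, which averaged under 5 TPM in some of the groups, this difference is a description.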

How the results depend on the processing

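The counts of members called stayed within 1.5 times the reported ones under every alternative run, except with the member threshold at 10 TPM. There 26 were higher and 14 lower with EIPA, and 41 higher and 20 lower at 0.2 mM glutamine, since fewer members were counted. With each library left out in turn, 37 to 44 were higher and 23 to 29 lower with EIPA, 0 and 0 were called with IL-1a, 70 to 75 were higher and 28 to 32 lower at 0.2 mM, and 31 to 39 differed between the EIPA and IL-1a responses. With group means removed, same-numbered libraries correlated by -0.281 to 0.601. For EIPA, every library but replicate 2 matched the vehicle library of its own number best. Between the glutamine levels every library but replicate 4 did so, and with IL-1a only replicates 4 and 5. The replicates may thus share an order that the labels do not state. The main fit takes no pairs, and the block below does. The replicate block gave 47 higher and 30 lower with EIPA, 0 and 0 with IL-1a, and 77 higher and 31 lower at 0.2 mM, and it ended no call of a named member.

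Of 2184 values of named members recomputed, 2127 stayed on their side of the threshold, 53 lost the call, 4 gained it and 0 changed direction while called. Some calls were lost when 1 library was left out. For EIPA, that of Pvt1 was lost without any of EIPA replicates 1 to 4 or 0.2 mM vehicle replicates 3 and 5 (adjusted p = 0.0703 to 0.105). That of Mir22hg was lost without any of EIPA replicates 2, 3 and 5 or vehicle replicates 3 to 5 (0.057 to 0.105), and that of Ifi30 without any of EIPA replicates 1 to 3 or vehicle replicates 3 to 5 (0.0739 to 0.136). That of Epb41l4aos was lost without vehicle replicate 4 (0.0594). Between glutamine levels, that of Wincr1 was lost without any of 0.2 mM replicates 1, 2, 3 and 5 or 4 mM replicates 2 to 5 (0.0523 to 0.109), and that of Bc1 without any of 0.2 mM replicates 1, 2, 4 and 5 or 4 mM replicates 1 to 3 (0.0562 to 0.17). Of the vehicle groups, Wincr1 averaged under 5 TPM at 4 mM alone, so its glutamine difference is a description without support from a test. With mitochondrially encoded genes left out, Tug1 (0.0576) and Ifi30 (0.115) lost the EIPA call and Bc1 (0.066) that for glutamine. Without the filter on low values the calls of Pvt1, Mir22hg, Ifi30, Wincr1 and Bc1 were lost as well, and that of Neat1 for glutamine (0.0628 to 0.0952 for the 6). The cause was not tested. Depth is unknown, so the precision of members near 5 TPM cannot be stated.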
